A study of Mus musculus with 96 samples.

Results

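The MT and ORR1 families of mammalian apparent LTR retrotransposons (MaLR) were followed through 96 single mouse oocytes and embryos, from the oocyte to the morula. Members were the repeat rows of the deposited count table whose names begin with MTA, MTB, MTC, MTD, MTE or ORR1. This rule took 48 of 873 repeat families, of which 19 are MT and 29 are ORR1, beside 55401 genes in the same table. By their names, 23 members are long terminal repeats (LTRs) and 25 end in -int, the internal part that lies between the LTRs of an element. No member was at 0 in every library. The row called MT-int lies outside the naming rule and was left out.

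MaLR elements are relatives of the class III endogenous retroviruses, the class that also holds the mouse element MERVL. They are nonautonomous: their internal parts do not encode the proteins that copy an element into a new place. Their LTRs carry promoters, and in mouse oocytes and cleavage embryos many are known to serve as first exons of transcripts that run into neighbouring genes, among them an oocyte form of Dicer1 that starts in an MTC element. MTA and ORR1A are among the young subfamilies, whereas MTE and the later letters of ORR1 are old and have diverged between copies.

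All libraries came from strain C57BL/6J, with no genetic change and no treatment of the embryos. Females superovulated with PMSG and HCG were mated with males of the same strain, cumulus cells were stripped with hyaluronidase in M2 medium, and embryos were kept in KSOM, so every embryo shares hormone stimulation and handling in vitro. The 16 groups were 8 oocytes, 7 morulae and embryos timed in hours from fertilization. There were 5 embryos for each of hours 0, 2, 8, 10, 12, 14 and 20, and 2, 3, 9, 10 and 6 embryos for hours 4, 6, 18, 22 and 24. Hours 16 and 36 had 8 embryos each. The labels describe libraries of 0 h to 36 h as a single cohort and put oocytes and morulae in batches of their own. The batch cannot be told apart from the stage when 0 h embryos are compared with oocytes or morulae with 36 h embryos. Each library is 1 oocyte or embryo, but the labels do not tie embryos to females, so p-values measure the spread between these embryos. Levels below are counts of a family per 1000000 gene counts, with the gene total scaled by the trimmed mean of M values (TMM). These levels depend on copy number and length, so they are compared between stages and not between families.

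Gene counts per library ranged from 564266 to 6795040 (median 2099013), apart from morula replicate 4 with 10223. Replicate 5 of 10 h went against its label: the oocyte genes Zp2, Zp3, Gdf9, Bmp15 and Mos summed to 8.999 there and to between 7873 and 10174 in the other 4 libraries of 10 h. That library is in none of the 8 comparisons below, but it is in the scaling of levels over all libraries and in the fit of all 96 libraries. The same 5 genes had a median sum of 5156 in oocytes, 1054 at 36 h and 60.95 in morulae, and stood at 995 in morula replicate 4. The 2-cell genes Zscan4d, Zscan4c, Tdpoz4, Usp17la and Gm4340 summed to a median of 27.0 at 24 h, 869.5 at 36 h and 0.356 in morulae. The 5 genes listed for morulae (Cdx2, Gata3, Krt8, Krt18 and Tfap2c) did not set morulae apart, with median sums of 60.96 there, 51.8 at 36 h and 161 in oocytes.

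Over the whole course the families fell into those with their highest median between 14 h and 24 h and those with it at 36 h, where the 2-cell genes were also highest. By group medians, 36 of 48 members peaked at 36 h, and these included all 10 ORR1A members. The 5 that peaked at 24 h were MTA_Mm, MTA_Mm-int, MTB-int, MTE2b-int and ORR1D2-int, the 4 at 22 h were MTB, MTB_Mm, MTC and MTC-int, the 2 at 20 h were MTB_Mm-int and MTD-int, and ORR1C1-int peaked at 14 h. Morulae held the lowest median for 34 of 48 members. The members together made up a median of 33.8% of all repeat counts in oocytes and 29.6% in 0 h embryos. Their share was 64.03% in the 16 h group and 70.6% in the 24 h group. It then stood at 42.4% for 36 h embryos and 3.44% for morulae.

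**Figure D1:**
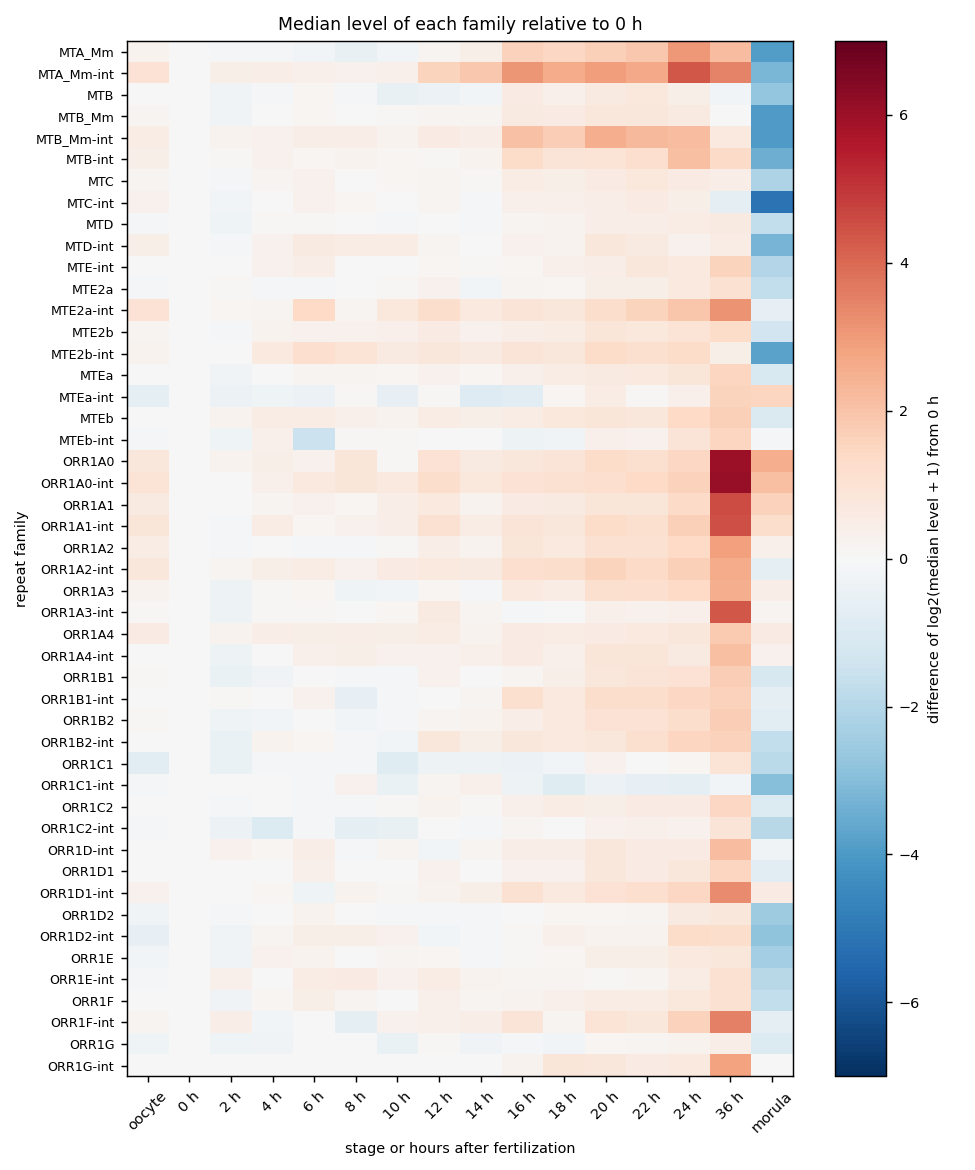
Median level of each of the 48 families (rows) in the 16 groups (columns), as the difference of log2(median level + 1) from the 0 h median, where the level is per 1000000 scaled gene counts. MTA rows are darkest at 24 h, ORR1A rows at 36 h, and most rows turn blue in morulae.

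MTA_Mm-int, the internal part of the youngest MT subfamily, held the most counts of any member, 8153800 over all libraries. In oocytes its level ran from 7306 to 11657 with a median of 9257. At 0 h the 5 libraries stood at 5269, 5980, 4553, 3536 and 3902, all below the lowest oocyte. The level at 12 h was 13399, 13297, 12187, 3762 and 13576, so that 4 of 5 libraries lay above every 0 h embryo and replicate 4 lay within the 0 h range. At 14 h the libraries stood at 15411, 25253, 10872, 16553 and 18967. From 16 h the embryos spread widely, from 20082 to 61894 at 16 h (median 38190), from 16636 to 75631 at 18 h (median 27794) and from 14234 to 100892 at 22 h (median 28278). The median was highest at 24 h, 91842 with a range of 20891 to 106243. At 36 h it was 49880, and all 8 embryos lay between 39757 and 79802. Morulae other than replicate 4 ranged from 305 to 639, and replicate 4 stood at 10911 from 296 counts.

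MTA_Mm, the LTR of the same subfamily, followed most of this course but not its start. Oocytes ranged from 3341 to 5151, and the 0 h embryos stood at 4997, 4492, 3492, 3097 and 2739, so these groups overlapped. The 12 h embryos stood at 4036, 4322, 3683, 2234 and 3946, again within reach of 0 h. The medians of the later groups were 4561 for 14 h, 10499 for 16 h, 28587 for 24 h and 15426 for 36 h. The count ratio of MTA_Mm-int to MTA_Mm differed between groups, with no test run. Its median was 2.21 in oocytes, 1.30 in 0 h embryos and 1.91 in 2 h embryos. In the groups from 4 h to 10 h the median lay between 1.855 and 1.935. It was 3.31 in the 12 h group, 2.15 in the 22 h group and 3.35 in the 36 h group. The ratio ranged from 1.82 to 2.56 in oocytes and from 1.05 to 1.42 at 0 h, without overlap. At 2 h it ranged from 1.492 to 2.175, also above every 0 h embryo. Both rows together made up a median of 81.6% of MT counts in oocytes, 95.7% at 24 h and 57.2% in morulae.

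**Figure D2:**
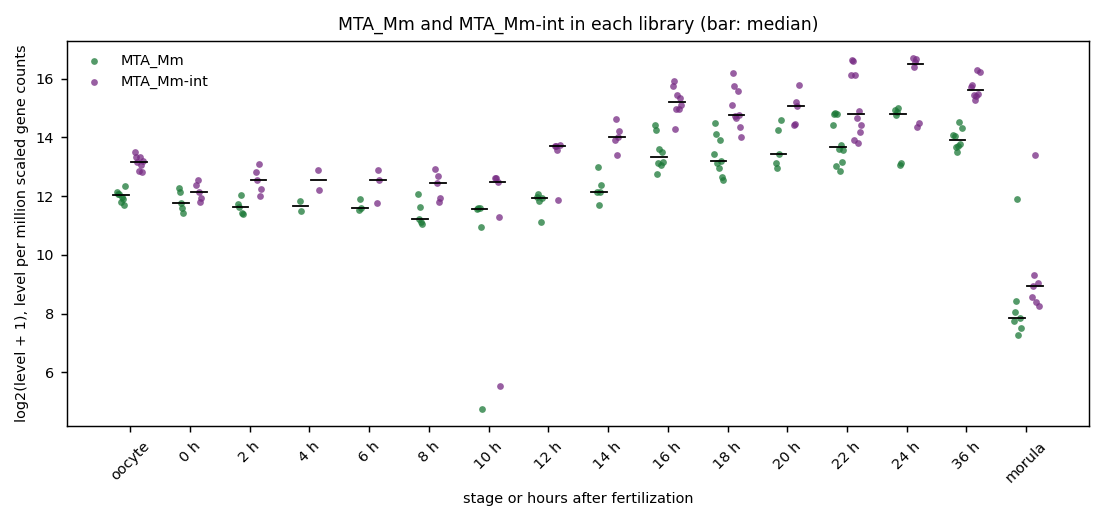
Level of MTA_Mm (green) and MTA_Mm-int (purple) in each of the 96 libraries by group, as log2(level + 1) with the level per 1000000 scaled gene counts, each point 1 oocyte or embryo and each bar the group median. Levels are highest at 24 h and lowest in morulae, the single low points at 10 h are replicate 5, and the single high points in morulae are replicate 4.

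The ORR1A subfamily, whose LTRs are the youngest of ORR1, had its highest medians at 36 h, and its ORR1A0 rows were low up to 22 h. ORR1A2-int differed less between stages, with a median of 462.7 at 20 h and 938.6 at 36 h. ORR1A0-int ranged from 32.9 to 86.6 in oocytes (median 69.2), stood at 15.5, 35.7, 28.9, 36.0 and 47.9 at 0 h, and at 84.9, 122.3, 96.4, 81.6 and 53.1 at 12 h. Its median was then between 60.9 and 95.6 in every group from 14 h to 22 h. At 24 h the 6 embryos spread from 63.9 to 808 (median 112.7), and at 36 h the 8 embryos lay between 1405 and 5907 (median 2482), above every earlier library. Morulae ranged from 36.9 to 514 with a median of 155.

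The LTR ORR1A0 gave the same order of stages. Its medians were 48.3 in oocytes, 26.9 in 0 h embryos, 55.5 in the 12 h group and 74.6 in the 24 h group. They were 1793 for 36 h embryos and 159 for morulae. The embryos of 36 h ranged from 796 to 3014, and the 24 h embryos from 37.2 to 435. ORR1A as a whole held a median of 47.9% of ORR1 counts at 24 h (range 44.3% to 63.1%) and 79.3% at 36 h (range 72.1% to 87.7%). Morulae kept a high share, 74.7%, although their summed ORR1 level was low, with a median of 1642 against 14431 at 36 h.

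**Figure D3:**
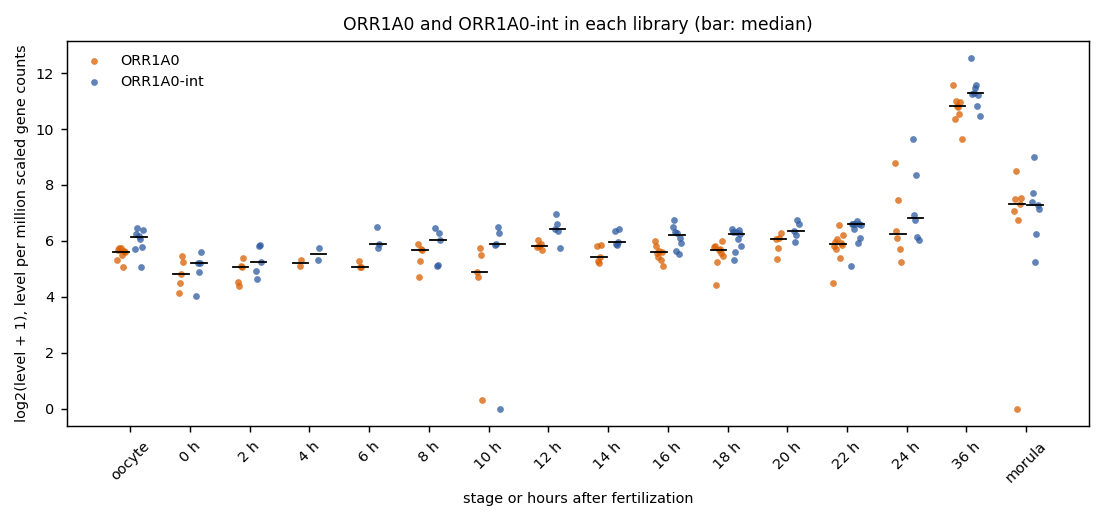
Level of ORR1A0 (orange) and ORR1A0-int (blue) in each of the 96 libraries by group, as log2(level + 1) with the level per 1000000 scaled gene counts, each point 1 oocyte or embryo and each bar the group median. All 8 embryos of 36 h lie above every other library, and 2 of the 6 embryos of 24 h lie above the other 4 of that hour.

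Embryos at 0 h were set against oocytes to see which families differ between the unfertilized and the newly fertilized egg. The test was edgeR's quasi-likelihood F test on all genes and repeat families in 1 table, with Benjamini-Hochberg adjustment over every row, and a member is called higher or lower at an adjusted p under 0.05. Of 43 members tested, 11 were lower at 0 h and 2 were higher (MTE2a-int, MTEb-int, ORR1D-int, ORR1F-int and ORR1G-int were under the filter on low counts). Over all rows, 22.8% were called higher and 22.1% lower, and among the other repeat families 13.3% and 12.1%. The median change of members was -0.08 on the log2 scale, against -0.02 for all rows.

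ORR1A accounted for 7 of the 11 lower members, and internal parts of MT for the other 4. MTA_Mm-int went from 9262 ± 1506 (SD, n = 8) in oocytes to 4648 ± 995 (SD, n = 5) in 0 h embryos. Its log2 change was -0.98 ± 0.14 (SE), with an adjusted p of 3.28e-06. ORR1A0-int fell by 0.99 on the log2 scale (SE 0.23, adjusted p = 0.00143) and ORR1A2-int fell by 0.71 (SE 0.11, adjusted p = 1.25e-05). MTB_Mm-int, MTB-int and MTD-int were the other lower internal parts of MT, with changes of -0.63, -0.39 and -0.40. The LTR MTA_Mm did not pass, at -0.12 (adjusted p = 0.489). ORR1C1, an older ORR1 LTR, was higher by 0.66 (adjusted p = 0.0127) and ORR1D2 by 0.29 (adjusted p = 0.0347), and neither passed when 0 h replicate 3 was left out. SMART-Seq v4 primes on poly(A) tails, so a change in RNA abundance and a change in tail length cannot be told apart. Of 10 listed cumulus and granulosa genes, 9 were above 3 counts in oocytes and 8 at 0 h, and Amh was at 0 in both. Their summed level overlapped between the groups, from 90.5 to 745 in oocytes and from 32.1 to 560.0 at 0 h. The 4 blood genes summed to 2301 and 383 in 0 h replicates 1 and 2, against 1.20 to 11.3 in the other 0 h embryos and 1.57 to 7.32 in oocytes. The part of these cells in the result was not tested.

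Few members passed the test in the first 2 h. Of 42 members tested at 2 h against 0 h, 0 were higher and 1 was lower, with 4.08% of all rows called higher and 3.97% lower (0.0% and 3.38% of the other repeat families). By edgeR, 0 members were higher at an unadjusted p under 0.05 either, and DESeq2 also called 0 higher. The lower one was the LTR ORR1B1, from 210.4 ± 33.2 to 158 ± 17.9 (SD, n = 5 each), a change of -0.47 (adjusted p = 0.0449) that did not pass once any of 9 of the 10 libraries was left out. The members MTE2a-int, MTEb-int, ORR1D-int, ORR1D1-int, ORR1F-int and ORR1G-int were under the filter here and in the next comparison.

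By 12 h, MTA_Mm-int and most of ORR1A stood above 0 h. Of 42 members tested, 11 were higher and 1 was lower at 12 h than at 0 h, with 19.6% of all rows called higher and 18.8% lower (15.5% and 4.53% of the other repeat families). The 11 included 7 of the 10 ORR1A members and 4 MT members. With plain library sizes in place of TMM, the median of all rows moved from 0.00 to -0.27 and that of members from 0.25 to -0.03, and the counts became 4 higher and 2 lower. This comparison and the one with oocytes share the 0 h libraries, so the values of both are given side by side without a test between them.

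MTA_Mm-int changed by 1.28 ± 0.29 (SE, adjusted p = 0.0023) from 0 h to 12 h, and by 1.52 without 12 h replicate 4. That library also had the highest sum of the 5 oocyte genes at 12 h, 10081 against 4536 to 5553 in the others. ORR1A0-int changed by 1.43 ± 0.30 (SE, adjusted p = 0.00132), from 32.8 ± 11.8 to 87.6 ± 25.1 (SD, n = 5 each), and ORR1A1-int by 1.21 ± 0.26 (SE, adjusted p = 0.00133), each without overlap of the groups. In 1 fit of all 96 libraries, neither these nor any other member passed in this comparison or in the one with oocytes. The LTR ORR1A0 changed by 0.96 and ORR1A1 by 0.77. MTB_Mm-int, MTE2b and MTE2b-int were the other higher MT members, at 0.66, 0.52 and 0.68. MTB, an LTR of intermediate age, was the lower one, at -0.44 (adjusted p = 0.0303). It did not pass without 0 h replicate 1, 2 or 3, without 12 h replicate 2, 3 or 4, with no filter (adjusted p = 0.177) or with title numbers as a block (adjusted p = 0.0547). MTA_Mm stood at -0.03 (adjusted p = 0.918). Without 0 h replicate 1, 2 or 3, or 12 h replicate 2, the number of higher members was 6, 5, 7 and 6.

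Between 14 h and 16 h both MTA rows rose more than 2-fold. Of 44 members tested, 5 were higher at 16 h and 0 were lower, with 5.57% of all rows called higher and 6.37% lower. Among the other repeat families 4.94% were higher and 1.18% lower (MTE2a-int, MTEb-int, ORR1F-int and ORR1G-int were under the filter). By edgeR, 1 member was lower at an unadjusted p under 0.05, and DESeq2 called 0 lower. MTA_Mm went from 5156 ± 1776 (SD, n = 5) to 12402 ± 5449 (SD, n = 8), a change of 1.24 ± 0.31 (SE, adjusted p = 0.0194). MTA_Mm-int went from 17411 ± 5278 to 40205 ± 13455, a change of 1.18 ± 0.27 (SE, adjusted p = 0.0124). The other higher members were MTB at 0.95, MTB-int at 1.03 and ORR1B1-int at 0.95. ORR1A0 and ORR1A0-int stood at 0.04 and 0.06, with adjusted p of 0.923 and 0.872. No member passed in 1 fit of all 96 libraries, where MTA_Mm had an adjusted p of 0.152 and MTA_Mm-int of 0.248. MTA_Mm did not pass without 14 h replicate 3, 4 or 5 (adjusted p = 0.0511, 0.0546 and 0.0551). Among libraries with shared title numbers and no b, its adjusted p was 0.138 with the block and 0.173 without it, and that of MTA_Mm-int was 0.22 and 0.207. As a share of all repeat counts, the log2 ratio of mean levels was 0.49 for MTA_Mm in place of 1.27, and 0.46 for MTA_Mm-int in place of 1.21. The number of higher members was 3 without 14 h replicate 5, 10 without 16 h replicate 3 and 11 without 16 h replicate 6.

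From 16 h to 22 h no member passed the test, while single embryos differed widely. Of 45 members tested, 0 were higher and 0 lower, with 0.385% of all rows called higher and 2.18% lower. Among the other repeat families 0.647% were higher and 0.216% lower (MTEb-int, ORR1F-int and ORR1G-int were under the filter). By edgeR, 2 members were higher and 0 lower at an unadjusted p under 0.05, and DESeq2 called 1 higher and 0 lower. MTA_Mm-int changed by 0.23 ± 0.38 (SE, adjusted p = 0.793) and ORR1A0-int by 0.22 ± 0.22 (SE, adjusted p = 0.653). The count of higher members was 1 when either 16 h replicate 1 or 22 h replicate 1 was left out.

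Library titles split the embryos of these hours. A trailing b marks the titles of 24 libraries in the hours 16 to 24, including all 5 of 20 h, and no label explains it. At 24 h, MTA_Mm-int ranged from 87104 to 106243 in the 4 embryos without the letter and stood at 20891 and 22795 in the 2 with it. At 22 h it was 72050, 98631 and 100892 without the letter and ranged from 14234 to 72258 in the 7 with it (median 22122). At 16 h the ranges overlapped, with 20082 to 61894 in 3 embryos without the letter and 32089 to 44299 in 5 with it. Among libraries with the letter, the change from 16 h to 22 h was -0.37 (adjusted p = 0.552), and among those without it 0.96 (adjusted p = 0.35). The 4 members that passed among b titles in that comparison were all higher. What the letter stands for and the level of MTA cannot be told apart within an hour.

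The libraries with the letter also differed in the oviduct gene Ovgp1, which encodes a glycoprotein secreted by the oviduct. Its level per 1000000 scaled gene counts ran from 0 to 0.888 in the 16 h embryos without the letter and from 20.7 to 721 in those with it. At 18 h these ranges were 0 to 2.34 and 13.1 to 35.2, and at 22 h 0.325 to 0.59 and 102.2 to 472. At 24 h the embryos without the letter ran from 0.387 to 1.72, and the 2 with it stood at 150.7 and 73.1. The ranges of Ovgp1 did not overlap between the titles at any of these 4 hours. The 4 blood genes summed to 3.61 to 4.87 without the letter and 14.7 to 5218 with it at 22 h. At 16 h, replicate 4, a b library, stood at 1796 and the other 7 embryos at or below 8.996. The part of oviduct and blood RNA in the results of these hours was not tested.

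**Figure D4:**
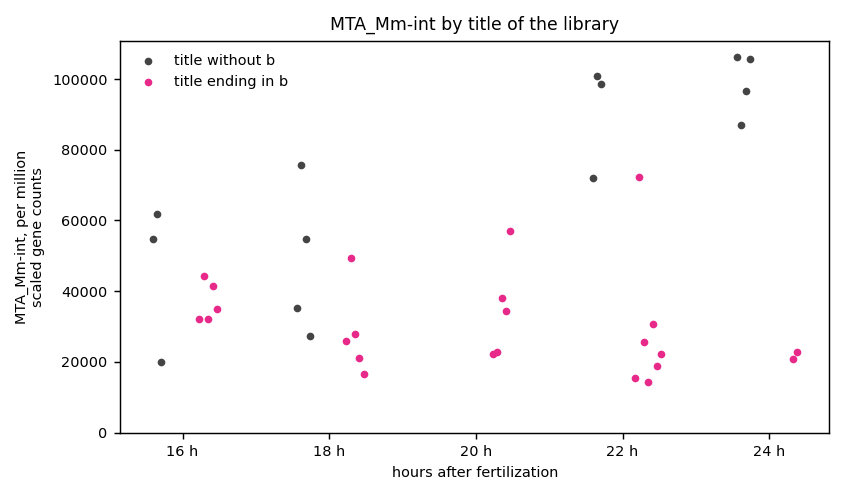
Level of MTA_Mm-int, per 1000000 scaled gene counts, in each embryo of 16 h, 18 h, 20 h, 22 h and 24 h, with libraries whose title ends in b in pink and the others in grey. At 24 h the 2 groups of titles do not overlap, and at 22 h a single b library reaches the level of the others.

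At 24 h, 13 of 46 members tested were higher than at 12 h and 0 were lower, with 13.9% of all rows called higher and 7.99% lower (22.4% and 0.86% of the other repeat families). By edgeR, 0 members were lower at an unadjusted p under 0.05, and DESeq2 called 0 lower (ORR1F-int and ORR1G-int were under the filter). The median change of members was 0.61, against 0.09 for all rows. Without the b titles 30 members were higher, and without 24 h replicate 5, a b library, 26 were.

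MTA_Mm-int went from 11244 ± 4218 (SD, n = 5) to 73203 ± 40395 (SD, n = 6), a change of 2.72 ± 0.47 (SE, adjusted p = 0.00189). MTA_Mm went from 3644 ± 821 to 23037 ± 11208, a change of 2.68 ± 0.38 (SE, adjusted p = 0.000648). In both cases every 24 h embryo lay above every 12 h embryo, the b libraries included. The internal parts MTB_Mm-int and MTB-int changed by 1.77 and 1.71, from 117.7 to 396 and from 123.7 to 400.1. Of the older ORR1, ORR1D2-int changed by 1.47, ORR1B1-int by 1.19 and ORR1B2 by 1.05. ORR1A3 was higher by 1.33, and ORR1A2 and ORR1A2-int by 0.84 each.

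ORR1A0 and ORR1A0-int did not pass at 24 h, and 2 embryos carried most of their difference. ORR1A0-int stood at 808, 120, 105.5, 329, 70.4 and 63.9 in the 6 embryos, a change of 1.52 ± 0.59 from 12 h (SE, adjusted p = 0.0763). It was 0.68 (adjusted p = 0.267) without replicate 1, and 1.97 (adjusted p = 0.0121) without the b titles. DESeq2 and 1 fit of all 96 libraries did call it, with adjusted p of 0.0385 and 0.0226. The same 2 embryos, replicates 1 and 4, had MERVL-int levels of 3490 and 2265 against 14.4 to 120 in the other 4. Their 2-cell genes summed to 1260 and 1532 against 8.74 to 39.1, and their part in the result was not tested. MTA_Mm-int did not set these 2 apart, since replicates 2 and 3 stood at 87104 and 96580 beside 106243 and 105605.

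Between 24 h and 36 h, ORR1A rose as a whole while parts of MTB and MTC fell. All 48 members were tested: 27 were higher at 36 h and 4 were lower, with 29.3% of all rows called higher and 24.5% lower. Among the other repeat families 53.2% were higher and 2.96% lower. The median change of members was 0.69, against 0.02 for all rows, and plain library sizes moved these to 0.95 and 0.33. All 10 ORR1A members were higher (median 2.18), as were 10 of the 19 other ORR1 members (median 0.63) and 7 of the 19 MT members.

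ORR1A0 went from 141 ± 152 (SD, n = 6) to 1782 ± 644 (SD, n = 8), a change of 3.68 ± 0.51 (SE, adjusted p = 2.89e-05), or 12.8-fold. ORR1A0-int went from 249 ± 291 to 2792 ± 1365, a change of 3.51 ± 0.56 (SE, adjusted p = 9.03e-05). Without 24 h replicate 1 these changes were 4.49 and 4.39. The change was smaller from one LTR of the subfamily to the next, with 3.20 ± 0.35 (SE) for ORR1A1, 1.49 ± 0.21 for ORR1A2, 1.11 ± 0.21 for ORR1A3 and 1.03 ± 0.19 for ORR1A4. Differences between these families were not tested. ORR1A3-int did not follow its LTR: it changed by 2.86 ± 0.47 (SE, adjusted p = 0.000114), from 190.4 ± 181.0 to 1346 ± 379.6 (SD). No ORR1A member overlapped between the groups, but the share of all rows without overlap was not counted.

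Among the older ORR1 families, LTRs of ORR1B, ORR1C and ORR1D1 were higher by between 0.63 (ORR1B2) and 0.96 (ORR1C2). ORR1E, ORR1F and ORR1G did not pass as LTRs, at 0.25, 0.38 and 0.24, nor did ORR1D2 at 0.41. Among internal parts, ORR1D1-int was higher by 1.59 and ORR1F-int by 1.68. ORR1G-int was higher by 2.98 ± 0.64 (SE, adjusted p = 0.000965), on 25 counts in all at 24 h and 143 at 36 h.

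Within MT, the members that fell belong to MTB and MTC, and those that rose to MTE. The internal part MTB_Mm-int went from 396 ± 158 to 123.1 ± 29.7, a change of -1.67 ± 0.25 (SE, adjusted p = 4.94e-05), with no overlap between the groups. MTC-int changed by -0.88 (adjusted p = 0.00196), MTB_Mm by -0.74 (adjusted p = 0.00578) and MTB by -0.58 (adjusted p = 0.0134). MTB did not pass without 24 h replicate 2 or 3, without 36 h replicate 8, or with plain library sizes. All 7 higher MT members were MTE, the oldest of these subfamilies: MTEa-int at 1.62, MTE2a-int at 1.25, MTEb-int at 1.21, MTE-int at 0.87, MTEa at 0.74, MTE2a at 0.53 and MTE2b at 0.43. Among LTRs that did not pass, MTC stood at -0.09, MTD at 0.28 and MTEb at 0.44.

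MTA did not pass between 24 h and 36 h, at -0.46 ± 0.31 for MTA_Mm and -0.36 ± 0.36 for MTA_Mm-int (SE, adjusted p = 0.222 and 0.404). When the 2 b libraries of 24 h were left out, both rows were lower at 36 h, by -0.82 (adjusted p = 0.00995) and -0.78 (adjusted p = 0.0205). Without them 20 members were higher and 7 lower. All 4 listed blood genes were above 3 counts in both groups. Their summed level had a median of 7.56 at 24 h and 109.4 at 36 h. It ranged from 2.23 to 273 at 24 h and from 19.7 to 228 at 36 h. Only 24 h replicate 5, a b library at 273, reached the 36 h range. The other 24 h embryos ran from 2.23 to 16.16. Ovgp1 ran from 0 to 23.6 at 36 h, below the 150.7 and 73.1 of the 24 h libraries with the letter b. Their part in the result was not tested.

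**Figure D5:**
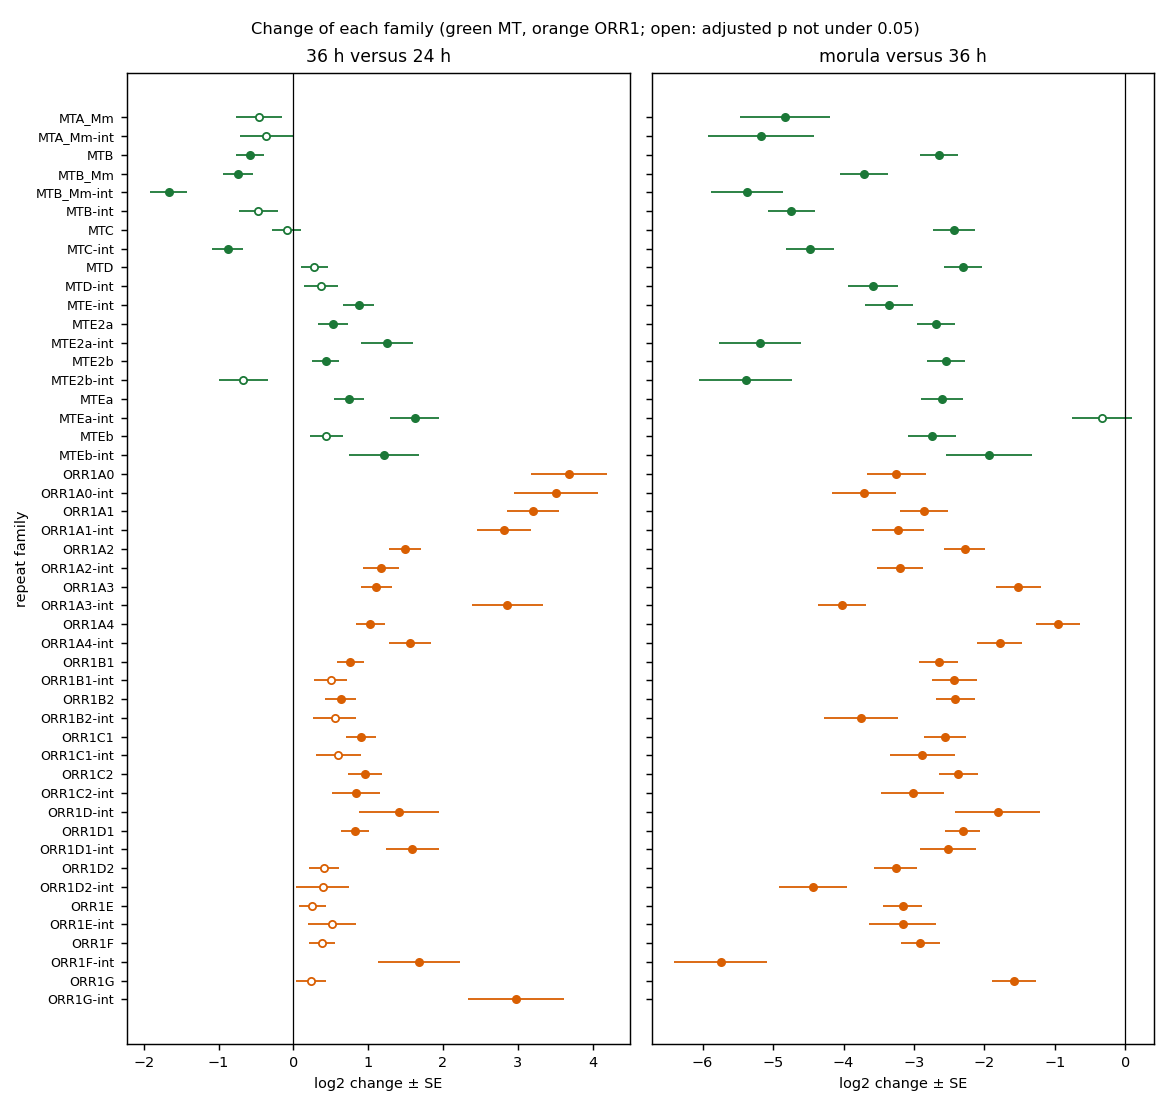
Log2 change ± SE of each family from 24 h to 36 h (left) and from 36 h to the morula (right), with MT in green and ORR1 in orange, filled where the adjusted p is under 0.05. On the left ORR1A families lie farthest right, up to 3.68, and MTB_Mm-int farthest left, at -1.67; on the right every tested family lies below 0, and ORR1G-int is missing because it was under the filter.

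In morulae nearly the whole group was lower than at 36 h. Of 47 members tested against 36 h, 46 were lower and 0 higher, with 27.2% of all rows called higher and 45.5% lower. Among the other repeat families 86.7% were lower and 4.42% higher. The median change of members was -2.88 and that of all rows -0.69. By edgeR, 0 members were higher at an unadjusted p under 0.05, and DESeq2 called 0 higher. In a whole embryo, fewer cells with a transcript and less of it per cell cannot be told apart.

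MTA_Mm-int went from 55029 ± 15252 (SD, n = 8) to 1939 ± 3958 (SD, n = 7), a change of -5.17 ± 0.75 (SE, adjusted p = 1.43e-06). Without morula replicate 4 the morula mean was 444 ± 127.1 (SD, n = 6) and the change -6.87 (adjusted p = 2.06e-12). With all 7 morulae, DESeq2 gave -3.82 and plain library sizes -3.94. MTA_Mm changed by -4.83 with that library and -6.05 without it. The internal parts fell farther than the LTRs in several subfamilies, with -5.37 for MTB_Mm-int beside -3.71 for MTB_Mm, and -4.48 for MTC-int beside -2.43 for MTC; these differences were not tested. MTB, MTD, MTEa and MTEb, as LTRs, changed by -2.65, -2.30, -2.60 and -2.74. MTE2b-int, MTE2a-int and ORR1F-int changed by -5.39, -5.19 and -5.74, with 11, 7 and 5 counts over all morulae, so the sizes of these changes rest on few counts.

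ORR1A0-int went from 2792 to 185 ± 156, a change of -3.71 ± 0.46 (SE, adjusted p = 1.42e-07), and ORR1A0 from 1782 to 161 ± 108.6, a change of -3.25 ± 0.42 (SE, adjusted p = 2.74e-07). The LTRs ORR1B1, ORR1C1, ORR1D1, ORR1E, ORR1F and ORR1G changed by -2.65, -2.56, -2.31, -3.16, -2.91 and -1.58. ORR1A4 changed least among ORR1, by -0.95 (adjusted p = 0.00862). MTEa-int was the tested member that did not pass, at 30.1 ± 10.8 and 19.6 ± 13.1 (change -0.33, adjusted p = 0.478). ORR1G-int was under the filter, with 143 counts at 36 h and 10 in morulae. Leaving out the shallow replicate 4 gave 47 lower members.

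Related families were read on the same scale. MERVL rows and LTR rows named MT2, which lie outside the MaLR, form a list of 8 rows. None of the 8 was called at 0 h against oocytes, 5 were higher at 24 h than at 12 h, and all 8 were higher at 36 h than at 24 h. Of all rows, 13.9% were higher at 24 h and 29.3% at 36 h. Of the repeat families other than the members, which include these rows, 22.4% and 53.2% were. MERVL-int went from 1006 ± 1501 at 24 h to 8766 ± 2884 at 36 h (change 3.18, adjusted p = 0.0155) and to 148.5 ± 123.6 in morulae (change -6.09, adjusted p = 3.36e-10). The MLT1 families, old MaLR elements shared with other mammals, had 32 of 58 rows above the filter at 36 h against 24 h, of which 12 were higher and 1 lower (median 0.55). In morulae 27 of 27 tested MLT1 rows were lower (median -3.21), beside 86.7% of the repeat families other than the members and 45.5% of all rows. Of the MERVL list, 5 of 8 were lower in morulae and 1 was higher.

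Genes that are known to act on LTR elements were followed through 3 lists, chosen with results of these data known. Of 21 genes of silencing (KAP1, histone and DNA methylation), 20 were tested at 36 h against 24 h, where 7 were lower and 1 higher, beside the 24.5% of all rows called lower and 29.3% higher. Setdb1, a histone H3 lysine methyltransferase, went from 60.1 ± 19.1 to 20.3 ± 6.01 (change -1.56, adjusted p = 0.000147). Dnmt1, the maintenance DNA methyltransferase, went from 184 ± 141 to 12.7 ± 3.01 (change -3.89, adjusted p = 7.17e-06), and Uhrf1, which recruits it, from 84.6 to 15.8 (change -2.42). Chaf1b, a subunit of the CAF-1 histone chaperone, was the higher one at 1.10. In morulae 5 of 21 were higher and 6 lower than at 36 h, beside 27.2% and 45.5% of all rows. Trim28, which encodes KAP1, went from 21.4 ± 8.41 to 136.2 ± 53.9 (change 2.84, adjusted p = 5.49e-08). The 6 lower ones were Uhrf1 (-1.73), Chaf1b (-0.83), Rif1 (-1.26), Zfp809 (-1.38), Suv39h1 (-2.96) and Suv39h2 (-3.05). At 0 h against oocytes, 7 of 18 tested genes were higher and 0 lower, beside 22.8% and 22.1% of all rows. At 12 h against 0 h, 10 of 18 tested genes were lower and 1 higher, beside 18.8% and 19.6% of all rows. At 24 h against 12 h, 4 of 20 were higher and 6 lower, beside 13.9% and 7.99%.

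Of 12 genes of small RNA pathways, 10 were tested at 36 h against 24 h, with 3 higher (Dgcr8, Mov10l1 and Piwil2) and 1 lower, where 29.3% of all rows were higher and 24.5% lower. The lower one was Dicer1, which cuts double-stranded RNA into small RNAs, with 828 ± 82.2 in oocytes, 646 ± 245 in the 12 h group and 269 ± 228 in the 24 h group, then 69.3 ± 20.8 for 36 h and 27.0 ± 53.2 for morulae (SD). These counts cover all forms of the gene, so the form that starts in an MTC element was not separated. At 24 h against 12 h, 7 were tested, with 3 higher (Drosha, Ago2 and Mael) and 3 lower (Dicer1, Ago3 and Ddx4). Of all rows, 13.9% were higher and 7.99% lower there. Mael, a piRNA pathway gene, changed by 2.48 (adjusted p = 0.0177).

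Of 14 genes of transcription factors active around genome activation, all were tested at 36 h against 24 h, and 5 were higher and 7 lower, against 29.3% and 24.5% of all rows. The higher ones were Dppa4, Nr5a2, Nfyb, Obox3 and Klf5. The lower ones were Dppa2 (-0.87), Nfya (-1.08), Nfyc (-1.07), Obox1 (-3.39), Obox2 (-4.21), Obox7 (-2.72) and Klf17. Nr5a2, an orphan nuclear receptor, went from 15.9 ± 2.81 to 27.7 ± 5.94 (change 0.82, adjusted p = 0.0129), and Klf5, a Krüppel-like factor, from 2.415 ± 3.798 to 43.9 ± 21.3 (change 4.06, adjusted p = 0.000258). Klf17 went from 648 ± 218 to 139.4 ± 77.95 (change -2.21, adjusted p = 4.78e-05). At 0 h against oocytes, 0 of 10 tested genes of this list were higher and 6 lower, beside 22.8% and 22.1% of all rows. At 12 h against 0 h, 7 of 10 were higher and 0 lower, beside 19.6% and 18.8%.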

How the data were processed

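Per the labels' protocols, libraries were made from single oocytes and embryos with SMART-Seq v4 and Nextera XT. Trimmomatic 0.39, STAR and featureCounts on mm10 are named in the submitters' processing notes. The deposited table holds expected counts that the authors did not normalise: 83.7% of the non-zero member values are not whole. How reads were shared between places is not given in the sources used here, and strand is not recorded. Counts of related families are therefore not independent of each other, and reads of a repeat inside a gene transcript cannot be told from reads of the element. The planned tests assumed whole counts, so values were rounded.

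Levels are rounded counts per 1000000 gene counts scaled by TMM over all 96 libraries. Each of 8 comparisons used its own groups in edgeR 4.0.16 (limma 3.58.1, R 4.3.3): filterByExpr, TMM on genes, robust quasi-likelihood F test, two-sided, Benjamini-Hochberg over all genes and repeats, threshold 0.05. On data simulated for 36 h against 24 h (13405 rows), 75.5% of 200 rows changed 4-fold were recovered, with 0 of wrong sign. Of the rows called, 5% were not among the changed ones. The changed rows had at least 200 counts and all rows shared the same dispersion. Recovery of members with fewer counts or a wider spread was therefore not measured. DESeq2 1.42.0, other scalings, no filter, 1 fit of all libraries, a block on title numbers, and leaving out single libraries or b titles were alternatives. Amplified reads carry no molecular identifiers, so the error of few counts cannot be taken as counting error alone. No libraries were identical; the most alike pair differed by a chi-square of 2.44 per gene. Gene symbols came from a gene name table (55141 identifiers matched).

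Named are, per comparison, up to 5 called members with the largest change in each direction, a fixed list of 20 subfamilies and the member with most counts. In the 6 comparisons up to 24 h, members of that list that did not pass are given by counts only, apart from MTA and ORR1A0. Other called or single members were named after their values were seen. The members, lists and comparisons were chosen with earlier results of these data known.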

Additional observations from a re-analysis of the deposited data

Results flagged for a closer look

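In 4 members followed library by library (MTA_Mm, MTA_Mm-int, ORR1A0 and ORR1A0-int), 56 groups of values were checked for a library whose gap to its nearest neighbour takes up most of the group's range, and 7 were found. The critical values used are 95% values, so their nominal rate is about 1 of 20 groups by chance.

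MTA_Mm stood at 3834 in morula replicate 4 against 154 to 343 in the others, and MTA_Mm-int at 10911 against 305 to 639. This library had 10223 gene counts, and the 5 oocyte genes summed to 995 in it against 39.8 to 69.7 in the other morulae. MTA_Mm-int stood at 3762 in 12 h replicate 4, below the 12187 to 13576 of the other embryos of 12 h. ORR1A0 stood at 435 in 24 h replicate 1 against 37.2 to 174, and ORR1A0-int at 808 there against 63.9 to 329. ORR1A0-int also stood at 5907 in 36 h replicate 1 against 1405 to 3062, and at 514 in morula replicate 3 against 36.9 to 210.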

How the results depend on the processing

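No named member that passed its test changed sign under any alternative. Under DESeq2 and under a library size of genes plus repeats, all 70 calls of named members held. In 1 fit of all 96 libraries 24 of them were lost, without a filter 5 and with plain library sizes 3. Over 931 pairs of a named call and a fit with a library left out, 881 kept the call and 50 lost it. Calls of the same comparison share these fits. With the block 10 were lost, and 7 in the same libraries without it. MTA_Mm and MTA_Mm-int passed between 24 h and 36 h in both of these fits, at -0.98 each with the block and -0.97 each without it.
Below, an hour stands for its comparison in the report.
In 1 fit of all 96 libraries 0 members were higher or lower at 0 h against oocytes, 0 lower at 2 h against 0 h, 0 higher or lower at 12 h against 0 h and 0 higher at 16 h against 14 h. Plain library sizes gave 4 higher and 2 lower at 12 h, 10 higher at 16 h and 26 higher at 24 h. Without a filter, 1 was higher at 0 h, 0 lower at 2 h, 7 higher and 0 lower at 12 h, and 8 higher at 16 h. DESeq2 gave 2 lower at 2 h, 10 higher at 16 h, 1 higher at 22 h and 20 higher at 24 h.
Title numbers did not pair the samples in a steady way: the lowest correlation of same-numbered libraries was between -0.318 and -0.05 in the 8 comparisons. The highest was between -0.318 and 0.394, with 0.394 at 16 h and 0.238 at 24 h. At 36 h, 2 of 4 shared numbers correlated best with their own number, and at 2 h 0 of 5. With the replicate block, 1 was higher at 0 h, 7 higher and 0 lower at 12 h, 0 higher at 16 h, 26 higher at 24 h, and 17 higher and 8 lower at 36 h. The same libraries without the block, a fit added after seeing the data, gave 0 higher at 16 h, 29 higher at 24 h, and 19 higher and 8 lower at 36 h. These fits left b titles out, and 22 h and 16 h then share 1 number. A replicate block on full titles for that comparison, b included, also added after seeing the data, gave 0 higher and 0 lower, as did the same libraries without it (MTA_Mm-int -0.68 and -0.41).
Without b titles, 10 were higher at 16 h, 30 higher at 24 h and 7 lower at 36 h, and with b titles alone 4 were higher at 22 h. With single libraries left out, 0 h against oocytes gave 0 to 3 higher and 9 to 12 lower, 2 h gave 0 to 1 lower, and 12 h gave 5 to 13 higher and 0 to 1 lower. Then 16 h gave 3 to 11 higher and 0 to 1 lower, 22 h 0 to 1 higher, 24 h 10 to 26 higher, 36 h 23 to 29 higher and 3 to 5 lower, and morulae 45 to 47 lower.
As a share of all repeat counts, 10 of 32 log2 ratios of mean levels differed by more than the spread between libraries. From 14 h to 16 h these were MTA_Mm 0.49 in place of 1.27, MTA_Mm-int 0.46 (1.21), ORR1A0 -0.67 (0.05) and ORR1A0-int -0.65 (0.08). From 12 h to 24 h they were MTA_Mm 1.07 (2.66), MTA_Mm-int 1.06 (2.70), ORR1A0 -0.39 (1.32) and ORR1A0-int -0.23 (1.51), and from 36 h to morulae MTA_Mm -2.44 (-4.45) and MTA_Mm-int -2.76 (-4.83).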
